A study of Mus musculus with 2 samples.

Results

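Fine cluster 8 of the colon CD8 T cells, given the working name exhausted-like Pdcd1 Tox cells, held 501 of 8562 cells. Its members are the cells with the value 8 in the annotation's column of 12 fine clusters, and by size it was the 9th of them. In the coarser clustering of the same annotation, 494 of the 501 cells lay together in coarse cluster 5, which had 502 cells. The study used T cell transfer colitis. Rag1 KO mice, which make no T or B cells of their own, received naive CD4 T cells (CD4+ CD45RBhigh CD25-) from wild-type spleens. With them they received CD8 T cells (CD8b+, TCRb+, no CD4), from spleens of Bcl6fl/flCd8aCre or of Bcl6fl/fl mice. The labels give an age of 8 to 12 weeks at transfer, and after 6 to 10 weeks CD8 T cells were taken from the colon lamina propria for 5′ single-cell RNA sequencing in 1 pooled library.

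Cells carried hashtags, antibody-bound barcodes that mark their source, named Crep 1 to 4 and Cren 1 to 4. Crep is read here as donors with the Cre, in which Bcl6 is floxed and the recombinase is driven by Cd8a, and Cren as floxed donors without it, a reading that no source spells out. Wild-type CD4 T cells were given to all hosts. No source says that each hashtag is a separate mouse, so p-values over hashtags measure the spread between hashtags only. Bcl6 itself was higher over all Crep cells, at 32.4, 29.9, 30.5 and 24.3 CPM (counts scaled to a common library total), against 16.7, 17.6, 15.4 and 20.5 CPM over all Cren cells. That was a log2 difference of 0.75 (SE 0.14, edgeR adjusted p = 0.0293), and the 2 groups did not overlap. Counts per gene read from 5′ ends do not separate floxed exons, so this level checks neither the deletion nor the reading of the names. Depth was similar on both sides of the cluster's border, with a median of 2683.5 unique molecular identifiers (UMIs, counted transcripts) per Cren cell in cluster 8 and 2832 in the other Cren cells.

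T cell exhaustion is the state that CD8 T cells reach under lasting antigen, in which several inhibitory receptors are kept on and effector output is restrained. PD-1, encoded by Pdcd1, is the best known of these receptors and dampens T cell receptor (TCR) signalling when it binds its ligands. The nuclear factor TOX is needed for the exhausted state to be set up and held, and a TCF1-positive subset, marked by Tcf7, is known as its self-renewing reserve. Each T cell clone carries its own rearranged TCR, so the V segments found in a cell state give a coarse view of the lineages in it.

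The 3′ ends of the TCR beta V segments that led cluster 8 are given first, because the leading segment changed from hashtag to hashtag. They are the reference sequences of GENCODE M21 transcripts, 5′ to 3′ on the plus strand of chromosome 6, and capitals mark the stretch that opens with the codon of the conserved cysteine, where the V segment enters CDR3. The antigen-contacting loop completed by joining to D and J segments was not analysed here.
Trbv14 (leading in Cren 3): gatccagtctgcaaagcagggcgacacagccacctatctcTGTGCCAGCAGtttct
Trbv4 (leading in Cren 2): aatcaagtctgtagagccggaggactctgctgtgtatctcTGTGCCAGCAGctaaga
Trbv19 (leading in Cren 4): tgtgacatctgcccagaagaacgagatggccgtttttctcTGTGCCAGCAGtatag
Trbv3 (leading in Cren 1 and Crep 3): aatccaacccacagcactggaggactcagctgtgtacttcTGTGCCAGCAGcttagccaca
Trbv13-1 (leading in Crep 4): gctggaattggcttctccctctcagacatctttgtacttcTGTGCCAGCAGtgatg
The genes lie at chr6:41135145-41135616 (Trbv14), chr6:41059394-41059886 (Trbv4), chr6:41178375-41179048 (Trbv19), chr6:41048290-41048828 (Trbv3) and chr6:41116007-41116468 (Trbv13-1) of GRCm38. Over the 40 bases ahead of the capitals these segments shared between 14 bases (Trbv19 and Trbv13-1) and 28 bases (Trbv3 and Trbv4).

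Cluster 8 was mostly a population of the Cren hashtags. It held 5, 7, 19 and 22 cells in Crep 1, 2, 3 and 4, against 87, 132, 191 and 38 cells in Cren 1, 2, 3 and 4. As shares of each hashtag's cells these were 0.491%, 0.642%, 1.90% and 2.10% in Crep, against 6.67%, 11.9%, 17.4% and 4.22% in Cren. Every Crep hashtag lay below every Cren hashtag, and the mean was 1.28% ± 0.835 in Crep and 10.1% ± 5.88 in Cren (SD, n = 4 hashtags each). The difference is a description with no test, because genes that lead the cluster, Pdcd1 among them, also differ between the groups over all cells. Cren cells made up 89.4% of cluster 8 and 51.4% of all cells. Crep 1 and Crep 2 had fewer than 10 cells in the cluster and stayed out of every value that compares it between the groups, unless they are named.

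**Figure D1:**
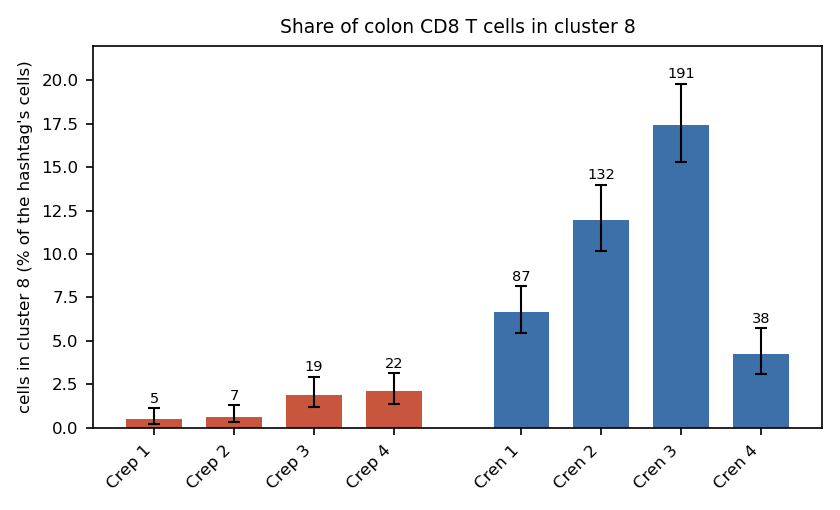
Cells in cluster 8 as a percentage of each hashtag's cells (vertical axis), 4 Crep hashtags on the left and 4 Cren hashtags on the right. Bars are shares with 95% Wilson intervals (counting error only) and the numbers are cells; all Crep bars, at most 2.10%, lie below the lowest Cren bar at 4.22%.

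The cells carried the 2 genes of the working name at a far higher level than the rest. Levels here are UMIs summed per hashtag and scaled to CPM, and the ratio of cluster 8 to the hashtag's other cells is taken on the log2 scale after 10 CPM is added to both, which understates the ratio of scarce genes. Pdcd1 (chr1:94038305-94052553, minus strand) stood at 494, 553, 398 and 901 CPM in cluster 8 of Cren 1, 2, 3 and 4, against 42.7, 24.0, 34.9 and 37.0 CPM in their other cells. Tox (chr4:6686353-6991557, minus strand) stood at 294, 354, 468 and 425 CPM in cluster 8, against 14.5, 20.4, 28.4 and 26.4 CPM in the other cells of the same hashtags. The lowest cluster value of either gene was several times the highest value outside, and the log2 ratios ran from 3.18 to 4.28 for Pdcd1 and from 3.58 to 3.64 for Tox. The few Crep cells of the cluster were alike in this: Pdcd1 stood at 601 and 618 CPM in cluster 8 of Crep 3 and Crep 4, against 12.9 and 15.5 CPM in their other cells. Tox stood there at 317 and 405 CPM, against 9.06 and 7.34 CPM. Cluster 8 was drawn on expression of these cells, so all its differences from other cells are descriptions without p-values.

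Cell by cell the pair overlapped only in part. With every cell thinned to 2000 UMIs and shallower cells left out (109 of 448 Cren cells in the cluster and 828 outside it), Pdcd1 was detected in 48.7% of 339 Cren cells in cluster 8 (95% Wilson interval 43.4 to 54.0%), against 4.76% of 3129 other Cren cells (4.07 to 5.57%). Tox was detected in 48.7% of the cluster's cells as well, against 3.55% of the others. Both genes were found in 23.9% of cluster 8 cells, against 0.320% of other Cren cells, and at least 1 of them in 73.5%, against 7.99%. Over all 4 Crep hashtags, Crep 1 and Crep 2 included, 35 cells of the cluster were deep enough, and at least 1 of the genes was found in 74.3% of them (57.9 to 85.8%), against 4.15% of 3136 other Crep cells. Without thinning, Pdcd1 was detected in 56.5% of Cren cells in cluster 8 and 6.80% of the others, and Tox in 63.6% and 5.05%. All intervals given here cover counting error only.

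Much of all the Pdcd1 and Tox message of the Cren colon cells came from this cluster. It held 60.8% of Pdcd1 UMIs (43.8 to 76.6% by hashtag) and 66.7% of Tox UMIs (38.5 to 76.9%), while Gzmb, encoding the cytotoxic protease granzyme B, had 9.37% of its Cren UMIs there. Over all 4 Crep hashtags, Crep 1 and Crep 2 included, the cluster held 97 of 333 Pdcd1 UMIs (29.1%, by hashtag 12.6 to 47.4%) and 52 of 139 Tox UMIs (37.4%, by hashtag 20.6 to 50%). The hashtag ranges of Crep and Cren overlapped for both genes. Among the other fine clusters of Cren cells, Tox was next highest in cluster 9, at 205 CPM over 56 cells against 395 CPM over cluster 8, and there its 4 hashtags spread from 0 to 509 CPM. Pdcd1 was next highest in cluster 11, at 128 CPM over 54 cells against 502 CPM over cluster 8, followed by cluster 9 at 103 CPM. Cluster 8 and cluster 9 overlapped in Tox across hashtags, so Tox alone does not separate them, whereas Pdcd1 in cluster 8 stayed above the hashtag range of cluster 9, whose highest value was 356 CPM.

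**Figure D2:**
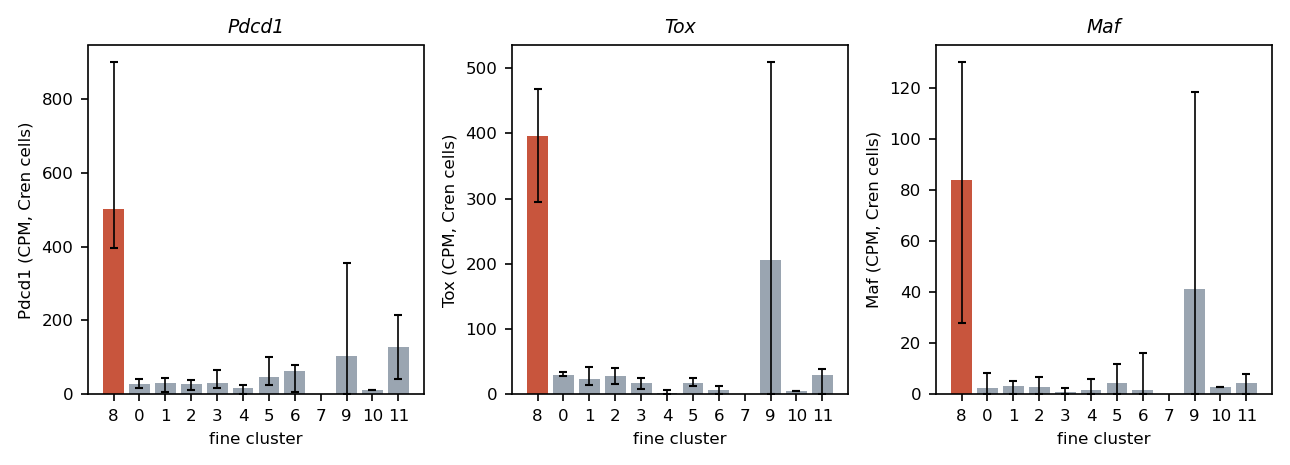
Pdcd1, Tox and Maf in the Cren cells of each fine cluster, in CPM of pooled UMIs (vertical axes), cluster 8 in red at the left. Bars from lowest to highest hashtag are drawn where at least 1 hashtag had 10 cells or more; Pdcd1 reaches 502 CPM in cluster 8 and Tox 395 CPM, with cluster 9 next for Tox and Maf.

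Of 3067 genes and TCR segments with at least 50 UMIs in Cren cells and 50 CPM on either side, 13 were at least 2-fold higher in cluster 8 in every Cren hashtag (0.424%) and 20 were at least 2-fold lower (0.652%). By any amount, 474 were higher in every Cren hashtag (15.5%) and 594 lower (19.4%), and the counts of list members below are read against these shares. The median log2 ratio over all 3067 was -0.02, a value that scaling to CPM by itself holds near 0. After Pdcd1 and Tox the highest median ratio belonged to Gm30211, a long non-coding RNA gene (chr6:70719074-70740554). It stood at 170, 106, 110 and 304 CPM in cluster 8 of Cren 1 to 4, against 5.59, 1.79, 6.19 and 7.48 CPM in the other cells, and 73.9% of its Cren UMIs lay in the cluster. Epha3, an ephrin receptor tyrosine kinase, stood at 60.4, 50.5, 83.2 and 70.9 CPM, against 6.86, 3.23, 3.27 and 4.33 CPM. Maf, encoding a transcription factor that promotes Il10 and other programmes of chronically stimulated T cells, stood at 90.5, 27.8, 130 and 30.4 CPM, against 4.83, 1.08, 2.18 and 3.15 CPM. All 3 genes lay apart from the other cells in every hashtag, though the level of Maf varied several-fold between hashtags. Maf held 75.3% of its Cren UMIs in the cluster.

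Further members of the leading group were receptors and signalling proteins. Il10ra, the ligand-binding chain of the receptor for IL-10, stood at 241, 164, 146 and 273 CPM in cluster 8 of Cren 1 to 4, against 54.1, 30.8, 49.1 and 39.3 CPM in the other cells. Sh2d1a, which encodes the SLAM receptor adaptor SAP, had a median log2 ratio of 1.27 (range 0.84 to 1.42), and Eomes, a T-box factor of effector and exhausted CD8 T cells, 1.45 (0.95 to 1.78). Ier3, an early response gene linked to survival, had 2.22 (1.41 to 2.70), Lpin1, a phosphatidate phosphatase, 1.57 (1.28 to 1.75), and Rgs16, a brake on G protein signalling, 1.59 (0.93 to 2.44). Cdc25b, a phosphatase that activates cyclin-dependent kinases, had 1.21 (0.51 to 1.67). The remaining genes among the 20 highest were Nccrp1, Wdr95, Serp2, Gxylt1, Setbp1, Sdcbp2, Smpdl3b and Tigit, with medians from 1.24 (Tigit) to 1.82 (Nccrp1). Not all of these were highest in cluster 8 among the fine clusters, pooled over Cren cells. Rgs16 was 374 CPM in cluster 11 against 103 CPM in cluster 8, and Setbp1 133 CPM in cluster 9 against 73.9 CPM. Smpdl3b was 66.6 CPM in cluster 4 against 64.7 CPM, and Wdr95 and Serp2 came close, at 164 CPM (cluster 6) against 190 CPM and 128 CPM (cluster 5) against 141 CPM. Each of the 20 was above the other cells in every Cren hashtag, which the rule that named them required.

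**Figure D3:**
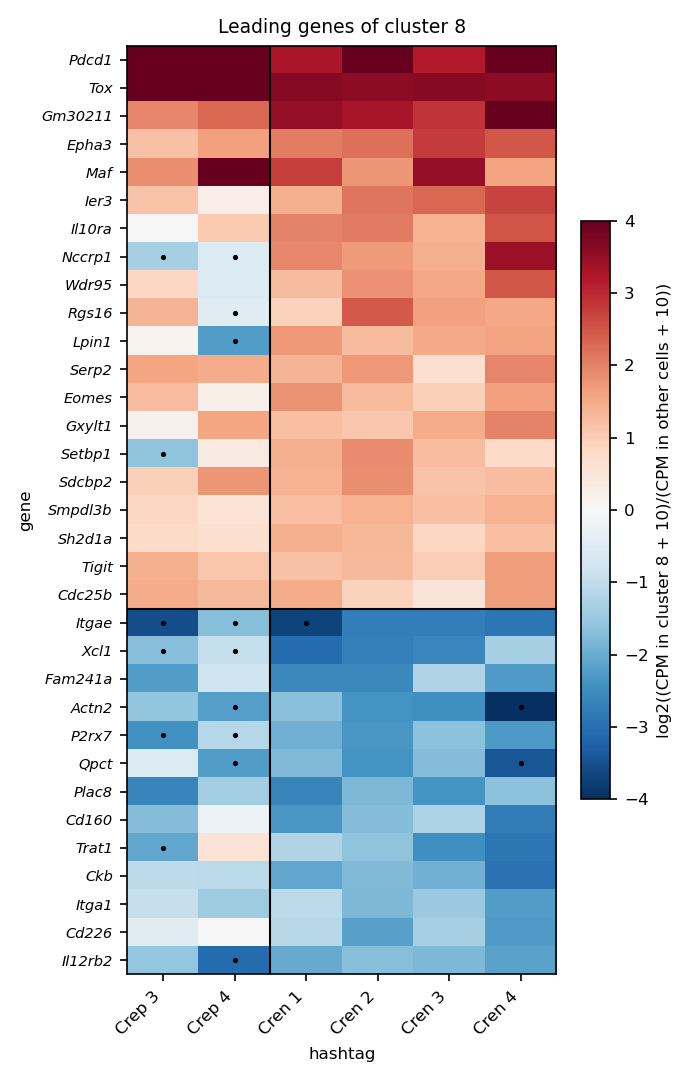
Log2 ratio of cluster 8 to the other cells of the same hashtag, with 10 CPM added to both, for the 20 highest and the lowest named genes (rows, split by a line) in Crep 3 and Crep 4 (left) and Cren 1 to 4 (right). Red is higher and blue lower in cluster 8, with colours held at 4 in either direction; Pdcd1 and Tox are deep red in all 6 columns. Dots mark genes with 0 UMIs in cluster 8 of that hashtag; in Crep 3 and Crep 4, where 3 UMIs would be 50.1 and 63.9 CPM, a dotted field shows no direction.

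The name was checked on 13 exhaustion markers, of which 12 are in the table and 8 passed the minimum of counts. Pdcd1 and Tox were at least 2-fold higher in every Cren hashtag and Cd160 was at least 2-fold lower. The median log2 ratio of the 8 was 1.09, against -0.02 over all genes measured, and 7 were higher in all 4 hashtags, against 15.5% of all genes measured. Without Pdcd1 and Tox, which gave the cluster its name, 5 of 6 were higher in all 4 hashtags and the median was 1.02. Tigit, an inhibitory receptor that binds the poliovirus receptor, averaged 600 ± 289 CPM in cluster 8 and 228 ± 59.2 CPM in the other Cren cells (SD, n = 4). Lag3, an inhibitory receptor for MHC class II, averaged 142 ± 23.1 CPM and 61.1 ± 13.8 CPM, and Ctla4, which competes with CD28 for its ligands, 358 ± 62.7 CPM and 188 ± 17.3 CPM. Nfatc1, a calcium-driven factor of TCR signalling, averaged 147 ± 30.9 CPM and 66.9 ± 9.89 CPM. In each of these 4 genes the means lay further apart than the SD of either side, and the wide spread of Tigit in the cluster came with a high value of 1023 CPM in Cren 4. Havcr2, encoding TIM-3, was scarce at 33.9 ± 11.2 CPM and 12.1 ± 2.97 CPM. The exception was Cd160, an inhibitory receptor of effector and exhausted cells, at 41.5, 104, 141 and 40.5 CPM in cluster 8 of Cren 1 to 4, against 251, 370, 353 and 342 CPM in the other cells. Low Cd160 was not particular to cluster 8: pooled over Cren cells it was 102 CPM there and 75.6 CPM in cluster 6. Nor were all the raised markers highest in cluster 8, pooled in the same way. Ctla4 was 351 CPM there and 357 CPM in cluster 2. Entpd1, also among the 7, was 60.9 CPM there and 68.1 CPM in cluster 4. Havcr2 was 29.7 CPM there, 34.9 CPM in cluster 4 and 80.4 CPM in the small cluster 7. Tigit (486 CPM) and Lag3 (136 CPM) were highest in cluster 8. These markers were among the genes on which the cells were clustered, so they describe the cluster and do not test its name. In the wider list of inhibitory receptors 10 were measured, and 5 were higher and 2 lower in every hashtag, with a median of 0.26.

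Markers of the self-renewing reserve were divided. Tcf7 was lower in cluster 8, at 90.5, 60.6, 34.3 and 40.5 CPM in Cren 1 to 4, against 173, 162, 135 and 180 CPM in the other cells. Pooled over Cren cells it was 54.1 CPM in cluster 8, 60.2 CPM in cluster 4, and lower in the small clusters 7 and 11, at 40.2 and 34.0 CPM. Satb1, a chromatin organiser, had a median log2 ratio of -1.74 (range -2.32 to -0.70), Il7r, the receptor for the survival cytokine IL-7, -0.88 (-1.15 to -0.68), and Xcl1, a chemokine for cross-presenting dendritic cells, -2.66 (-3.07 to -1.34). Of the 1608 Xcl1 UMIs in the other Cren cells, 882 came from the 54 cells of cluster 11. Clusters 4, 5 and 6, at 6.34, 10.9 and 2.47 CPM of Xcl1, lay below cluster 8 at 13.7 CPM. Cd28, the main costimulatory receptor, went the other way at 0.93 (0.50 to 1.03), as did S1pr1, which guides cells out of tissue, at 1.03 (0.07 to 1.65), and Slamf6 at 0.52 (0.44 to 1.01). Over the 11 measured of 18 members, 4 were higher and 5 lower in every hashtag and the median was 0.00. Bcl6, the gene of the floxed allele, was scarce in the cluster, with 12 UMIs over its 448 Cren cells and 1 UMI over its 53 cells of all 4 Crep hashtags.

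The lower side was led by genes of tissue-resident lymphocytes. Itgae, encoding the CD103 chain that binds epithelial E-cadherin, stood at 0, 30.3, 9.04 and 20.3 CPM in cluster 8 of Cren 1 to 4, against 120, 265, 120 and 214 CPM in the other cells. In the 4 Crep hashtags none of 1159 Itgae UMIs lay in cluster 8, though the cluster had few cells there. Low Itgae was not particular to cluster 8. Pooled over Cren cells it was 14.5 CPM there, 7.92 CPM in cluster 4 and 14.0 CPM in cluster 6. The level of the other cells came largely from clusters 0 and 2, at 438 and 327 CPM. Itga1, the CD49a chain that binds collagen, averaged 25.1 ± 10.2 CPM in cluster 8 and 97.6 ± 28.4 CPM in the other Cren cells, and P2rx7, an ATP-gated channel, 13.8 ± 5.91 CPM and 89.2 ± 29.4 CPM (SD, n = 4). Of 12 residency genes measured, these 3 and Xcl1 were at least 2-fold lower in every hashtag, against 0.652% of all genes measured. By any amount 8 of the 12 were lower in all hashtags and 2 higher, against 19.4% and 15.5% of all genes, with a median of -0.32. The list also holds S1pr1, which guides cells out of tissue and was higher in every Cren hashtag, so these counts mix genes of opposite roles. Zfp683, encoding the residency factor Hobit, averaged 2.21 ± 2.60 CPM and 39.3 ± 29.4 CPM but was too scarce to count among them. Cd69, an early activation and retention marker, had a median log2 ratio of -0.29. Members of the TGF-beta response list, a pathway that induces CD103, had a median of -0.52 over 8 measured, with 5, Itgae itself among them, lower and 0 higher in every hashtag, against 19.4% and 15.5% of all genes measured.

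The remaining named genes on the lower side were Fam241a, Actn2, Qpct, Plac8, Trat1, Ckb, Cd226 and Il12rb2. Actn2 encodes an alpha-actinin, Trat1 a TCR-associated adaptor, Cd226 the activating receptor that shares ligands with TIGIT, and Il12rb2 a chain of the IL-12 receptor. Their median log2 ratios ran from -1.76 (Cd226) to -2.43 (Fam241a). Cd226 stood at 71.7, 50.5, 97.6 and 40.5 CPM in cluster 8 of Cren 1 to 4, against 167, 263, 263 and 234 CPM in the other cells, so the activating and the inhibitory receptor of that ligand pair differed in opposite directions.

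Cytotoxic genes differed in both directions. Gzmk, encoding granzyme K, was higher in the cluster, at 1399, 864, 1063 and 1610 CPM in Cren 1 to 4, against 595, 424, 567 and 348 CPM in the other cells. Gzma was lower in every Cren hashtag, at 841, 1126, 745 and 466 CPM, against 3761, 1822, 2254 and 897 CPM. Gzmb overlapped, at 1192, 611, 1365 and 891 CPM, against 1573, 874, 1381 and 440 CPM, lower in 3 hashtags and higher in Cren 4. Ccl5, a chemokine of memory CD8 T cells, averaged 39732 ± 4036 CPM in cluster 8 and 21645 ± 4947 CPM in the other Cren cells. Of 19 cytotoxic genes measured, 4 were higher and 5 lower in every hashtag (21.1% and 26.3%, against 15.5% and 19.4% of all genes measured), with none past 2-fold in all. These shares are near those of all genes.

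Some lists of other lymphocyte types were higher in the cluster, while many of the markers that define other cell types were at or near 0. The 10 genes of the CD8 T cell list had a median log2 ratio of -0.06, and their summed level ran from 6754 to 8796 CPM in cluster 8 and from 7824 to 8682 CPM in the other Cren cells. The follicular helper list summed to 518 to 758 CPM in cluster 8 and 314 to 450 CPM in the other Cren cells, without overlap, with Sh2d1a and Slamf6 at least 1.5-fold higher in the mean over hashtags; its defining receptor Cxcr5 was scarce but higher in the cluster, at 10.3 ± 7.53 CPM and 0.542 ± 0.451 CPM (SD, n = 4). The regulatory T cell list summed to 573 to 740 CPM and 473 to 586 CPM, with Ikzf2, Ctla4 and Tnfrsf4 at least 1.5-fold higher, and its defining factor Foxp3 had 1 UMI in the Cren cells of the cluster. The list of CD4 T cells, which shares Ikzf2 and Tnfrsf4 with it, summed to 30.4 to 139 CPM and 23.7 to 72.4 CPM. The list of NK and innate lymphoid cells summed to 164 to 249 CPM and 102 to 159 CPM, without overlap, with Eomes at least 1.5-fold higher and 8 of its 12 genes at 0. Ctla4 and Eomes are also genes of exhausted CD8 T cells, and the part of other cell types in these sums was not tested.

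Cd4 and Cd40lg were at 0 in the Cren cells of the cluster, as were Trdc of gamma-delta T cells, the NK receptor genes Klrb1c, Klra7 and Klra8, and S100a8 and S100a9 of granulocytes. Cd4 was higher in Crep than in Cren over all cells (log2 difference 4.36, edgeR adjusted p = 0.000515). It was also higher in Crep outside the cluster (4.22, adjusted p = 0.00117), so its 0 in Cren cells is not read as a mark of cluster 8. The summed B and plasma cell list ran from 10.1 to 73.2 CPM in cluster 8 and from 8.61 to 36.0 CPM in the other cells, and the myeloid list from 284 to 432 CPM and from 407 to 528 CPM. A hashtag classifier called 2 of the 501 cells doublets, and 4 lacked the same hashtag from both classifiers.

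TCR use in the cluster was narrow, and the leading V segment changed from hashtag to hashtag. A cell's segment is the Trbv gene with its most UMIs. V segment genes were counted with all other genes and may have entered the clustering. Segment use in the cluster, here and below, is therefore a description. In Cren 3, Trbv14 was called in 102 of 182 cells of cluster 8 (56.0%, interval 48.8 to 63.1%), against 13 of 746 other cells (1.74%). In Cren 2, Trbv4 was called in 57 of 116 cells (49.1%), against 4.21% of the other cells, and in Cren 4, Trbv19 in 21 of 35 cells (60.0%), against 3.56%. Cren 1 was the least concentrated, with Trbv3 in 21 of 83 cells (25.3%), against 6.38%. The leading segments of all 4 Cren hashtags were different, so no V beta segment led the cluster throughout. A segment could still be enriched in more than 1 hashtag. Trbv4 was also called in 8 of 35 cluster cells of Cren 4 (22.9%), against 3.12% of its other cells. In Crep 3 it was called in 4 of 19 (21.1%), against 1.81%. In Cren 1, Cren 3 and Crep 4 it was not among the 4 segments with the most UMIs in the cluster. The Crep cells had leaders too, Trbv3 in 12 of 19 cells of Crep 3 (63.2%), against 2.90% of its other cells, and Trbv13-1 in 13 of 18 cells of Crep 4 (72.2%), against 4.44%.

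The share of a leading segment's carriers that lay in the cluster varied. In Cren 3, 102 of all 115 Trbv14 cells lay in cluster 8 (88.7%, interval 81.6 to 93.3%), though it held 17.4% of that hashtag's cells. In Cren 2 the share was 62.0% of 92 Trbv4 cells, in Cren 4 46.7% of 45 Trbv19 cells and in Cren 1 24.1% of 87 Trbv3 cells. Second segments were enriched as well in places, such as Trbv13-1 in Cren 2, in 28.4% of called cells in the cluster and 2.53% of the other cells. The 3 most frequent segments together covered 100% and 88.9% of called cells in cluster 8 of Crep 3 and Crep 4, and 54.2%, 87.9%, 91.2% and 88.6% in Cren 1, 2, 3 and 4. The effective number of Trbv segments, the inverse of the chance that a pair of cells share one, was 7.42, 2.95, 2.41 and 2.38 in cluster 8 of Cren 1, 2, 3 and 4, against 12.8, 10.3, 9.01 and 10.0 in their other cells. Cluster 8 was below the rest in each of them. In Crep 4 the numbers were close, 1.84 and 2.71, and there Trbv13-3 alone covered 59.3% of its other cells.

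**Figure D4:**
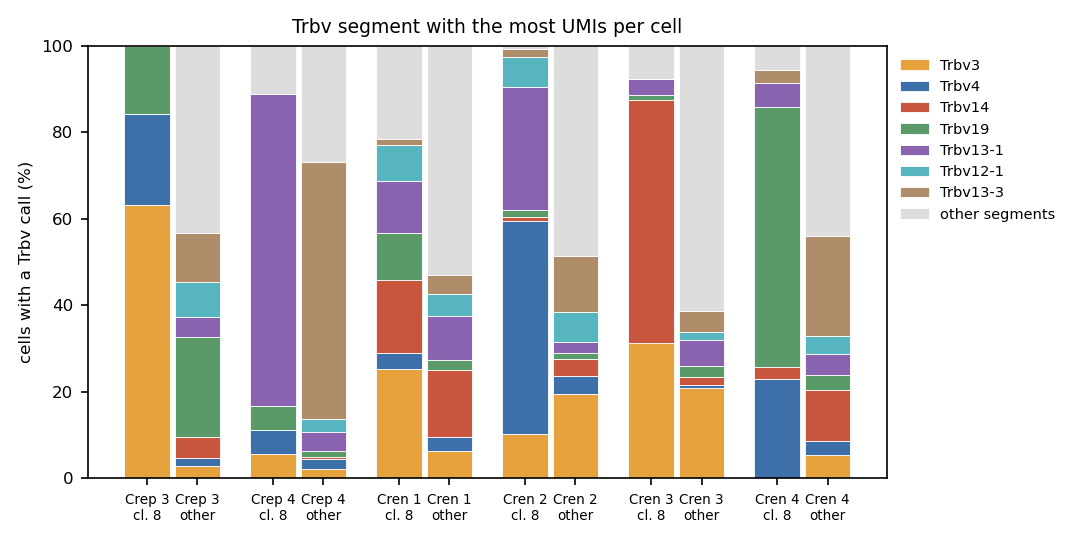
Trbv segment with the most UMIs per cell, as a percentage of cells with a call (vertical axis), for cluster 8 (left bar of each pair) and the other cells (right bar) of Crep 3, Crep 4 and Cren 1 to 4. The leading colour differs between the 4 Cren bars of cluster 8, such as Trbv14 at 56.0% in Cren 3 and Trbv4 at 49.1% in Cren 2, while the other cells are spread over many segments except in Crep 4.

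In each Cren hashtag the most frequent V alpha and V beta pair made up a larger part of the cluster than the most frequent pair did of the other cells. Trav genes have near-identical copies, so counts of a named Trav are uncertain, and cells that share both V segments need not be 1 clone. In Cren 3, Trbv14 with Trav3-3 made up 59 of 135 cluster cells with both chains called, and 59 of the 66 cells with that pair in Cren 3 were in cluster 8. In Cren 2, Trbv4 with Trav12-2 made up 39 of 83, and 39 of its 48 cells were in the cluster. In Cren 4 only 12 cluster cells had both chains, and 7 of them had Trbv4 with Trav2. Cren 1 was the least concentrated, with Trbv3 and Trav6n-6 in 13 of 48 (27.1%). Among the other cells with both chains, the most frequent pair made up 10.7%, 17.8%, 13.4% and 22.9% in Cren 1, 2, 3 and 4. In Crep 4 it made up 50.3% of them, against 12 of 16 cells (75.0%) for the leading pair in the cluster. The cells of the cluster's leading Cren pairs that lay elsewhere were scattered, the 7 others of Trbv14 with Trav3-3 over 5 further fine clusters.

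Several pairs recurred in more than 1 hashtag, and their cells were then in cluster 8 in some hashtags and outside it in others. Trbv3 with Trav6n-6 had 13 of 16 cells in the cluster in Cren 1 and 16 of 16 in Cren 3, and 0 of 7 in Crep 1. Trbv4 with Trav2 had 7 of 7 in Cren 2 and 7 of 7 in Cren 4, and 0 of 10 in Crep 4. Trbv13-1 with Trav16n had 11 of 11 in Cren 2 and 0 of 20 in Crep 2. All Crep cells of these 3 pairs lay outside the cluster. Cluster 8 held only 0.491 to 2.10% of all cells of a Crep hashtag, so 0 among few cells says little. Trbv13-1 with Trav3-3 had 12 of 20 in Crep 4, 2 of 2 in Cren 3 and 0 of 5 in Crep 2, so pairs in the cluster were not limited to Cren. Trbv4 with Trav12-2 had 39 of 48 in Cren 2, 1 of 3 in Crep 3, and 0 of 2 in Crep 2. Trbv14 with Trav16 had 16 of 16 in Cren 3 and 3 of 4 in Cren 1, and 0 of 6 in Crep 3. Trbv14 with Trav3-3 had 59 of 66 in Cren 3, 4 of 7 in Cren 1 and 0 of 2 in Cren 2. Trbv3 with Trav3-4 had 21 of 23 in Cren 3 and 1 of 5 in Cren 1. Trbv12-1 with Trav12-2 had 7 of 13 in Cren 2 and 0 of 8 in Crep 3. Trbv3 with Trav5-4 had 6 of 8 in Cren 2 and 0 of 6 in Crep 4. Trbv12-1 with Trav17 had 5 of 7 in Cren 1 and 0 of 2 in Crep 1. These pairs were listed after their counts in the cluster were seen, as those with at least 5 cells there, and hashtags with a single cell of a pair are left out. Apart from Trbv13-1 with Trav3-3 and Trbv4 with Trav12-2, they reached that number through Cren cells only. High Cren shares of those pairs follow in part from the choice. Whether hashtags were mis-assigned was not tested.

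Cells with the same V beta segment differed by their cluster. The cluster was drawn on expression and Pdcd1 and Tox lead it, so high levels inside and low levels outside follow in part from that grouping. The values below, for leading and for other segments, are descriptions. In Cren 3, Trbv14 cells had 455 CPM of Tox in cluster 8 and 93.6 CPM outside it, where only 13 cells and 3 UMIs were left. In Cren 2, Trbv4 cells had 201 CPM of Tox in cluster 8 and 10.2 CPM outside it, and in Cren 1, Trbv3 cells had 509 CPM and 4.51 CPM. In Cren 4, Trbv19 cells had 567 CPM and 61.1 CPM. Pdcd1 followed, with 207, 385, 377 and 932 CPM in the leading-segment cells of cluster 8 in Cren 1, 2, 3 and 4, against 27.0, 153, 93.6 and 45.9 CPM in carriers of the same segment outside. Within the cluster, cells with other segments had Pdcd1 at 582, 689, 375 and 823 CPM, and Tox at 228, 500, 496 and 222 CPM, so high levels were not confined to cells with the leading segment in any of the 4 hashtags. The order of leading and other segments within the cluster was not the same in all hashtags: for Tox, leading-segment cells were higher in Cren 1 and Cren 4 and lower in Cren 2.

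**Figure D5:**
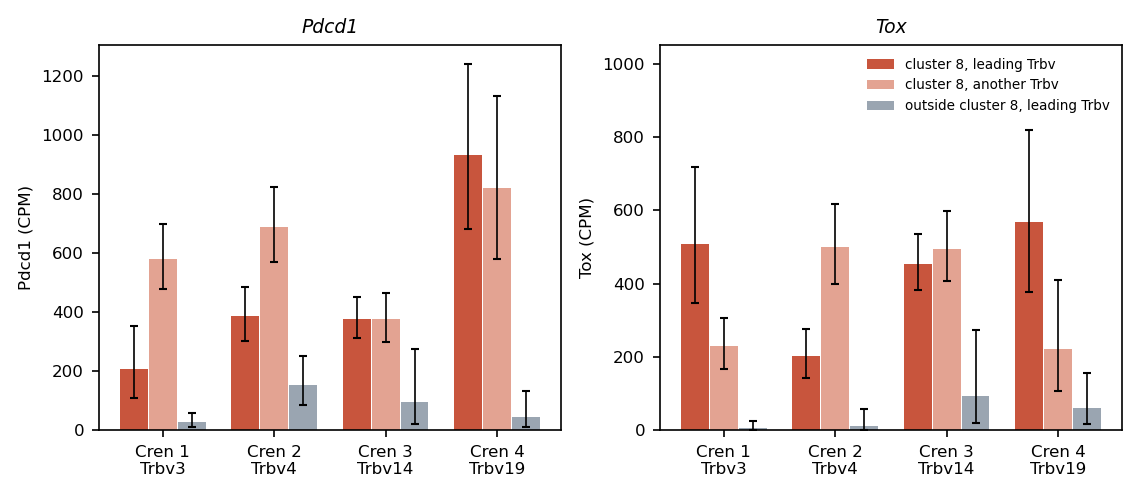
Pdcd1 (left) and Tox (right) in CPM in the 4 Cren hashtags, for cells of cluster 8 with the hashtag's leading Trbv segment, cells of cluster 8 with another Trbv segment, and carriers of the leading segment outside cluster 8. Error bars are 95% Poisson intervals of the pooled UMIs, counting error only; in every hashtag both red bars stand above the grey bar, for Tox in Cren 1 at 509 and 228 CPM against 4.51 CPM. Cells were grouped into clusters by expression, so the order of the bars follows in part from that grouping.

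Crep and Cren cells were then compared inside and outside the cluster, to see which differences between the groups were also there without it. Over all cells, 33 of 9653 genes were higher in Crep (0.342%) and 26 lower (0.269%) at an edgeR quasi-likelihood adjusted p under 0.05. Pdcd1 stood at 20.2, 36.5, 24.1 and 26.2 CPM over all cells of Crep 1 to 4, against 71.2, 89.8, 95.7 and 69.3 CPM in Cren 1 to 4, a log2 difference of -1.59 (SE 0.18, adjusted p = 0.00310) with no overlap. With cluster 8 left out, it stood at 15.0, 32.1, 12.9 and 15.5 CPM in Crep, against 42.7, 24.0, 34.9 and 37.0 CPM in Cren. The groups then overlapped through Crep 2 and Cren 2, and the log2 difference of -0.85 (SE 0.32, adjusted p = 0.363) did not pass. Without Crep 2 it was -1.28 and passed (adjusted p = 0.0185). The 2 fits share most of their cells, and the cells left out were chosen by expression, so the values are set side by side and not compared.

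Over all cells Tox stood at 6.61, 9.78, 14.9 and 14.4 CPM in Crep 1 to 4, against 32.1, 61.9, 102 and 41.3 CPM in Cren 1 to 4, and its log2 difference of -2.37 did not pass (edgeR adjusted p = 0.131). Outside the cluster it stood at 4.32, 7.80, 9.06 and 7.34 CPM in Crep, against 14.5, 20.4, 28.4 and 26.4 CPM in Cren, again without overlap, and the log2 difference of -1.61 (SE 0.25, adjusted p = 0.0189) passed. That call was lost with limma-voom (adjusted p = 0.0523) and without Crep 2 (adjusted p = 0.0600). Outside the cluster 31 of 9558 genes were higher (0.324%) and 18 lower (0.188%) in Crep. Gm30211 (log2 difference -3.60, adjusted p = 8.69e-06 by edgeR) and Epha3 (-3.30, adjusted p = 0.00163) were lower in Crep over all cells, and too few of their UMIs remained outside the cluster to be tested. Gm30211 had 2, 1, 4 and 2 UMIs outside it in Crep 1 to 4, against 22, 5, 17 and 19 in Cren 1 to 4. Plac8, which is low in cluster 8, was higher in Crep over all cells (log2 difference 0.55, adjusted p = 0.0491) and did not pass outside it (0.44, adjusted p = 0.240). Batf, a factor of TCR-driven differentiation, was lower over all cells (-0.38, adjusted p = 0.0494) and did not pass outside it (-0.32, adjusted p = 0.187).

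Inside cluster 8, where Crep 3 and Crep 4 were set against Cren 1 to 4, no gene of 3137 passed in either direction (0%), with a smallest adjusted p of 0.120 by edgeR and 180 genes at an unadjusted p under 0.05. DESeq2 called 0 as well (87 unadjusted) and limma-voom called 1, Capg, an actin-capping protein, at a log2 difference of 2.04 (adjusted p = 0.0233). Pdcd1 differed by 0.07 (SE 0.32) and Tox by -0.15 (SE 0.26) on the log2 scale. Both genes lead the cluster, which was drawn on expression, so small differences inside it may follow in part from the grouping. The gene nearest to the threshold was Cd5, a brake on TCR signalling, with a log2 difference of -2.20 (SE 0.48). The fit held 41 Crep cells in 2 hashtags, and a p that misses the threshold does not show that the groups were alike within the cluster.

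The difference between the 2 effects, Crep minus Cren inside the cluster less the same outside it, was tested with hashtag as a block. Of 9469 genes 7 had a higher effect inside the cluster (0.0739%) and 34 a lower one (0.359%) by edgeR. The median over all genes was itself -0.30 on the log2 scale, and with median-of-ratios scaling it was -0.13 and the calls split into 7 higher and 5 lower, so most of the lower calls rest on the scaling. Pdcd1 had a difference of 1.17 (adjusted p = 0.0286), which did not pass with DESeq2 (1.31, adjusted p = 0.947) nor without any 1 of Crep 3, Crep 4, Cren 1 or Cren 3 (adjusted p from 0.142 to 0.488). Pdcd1 leads a cluster drawn on expression, so its levels inside and outside follow in part from that grouping, and the value is a description. Of the other leading genes, Il10ra (-1.67), Wdr95 (-1.78) and Lpin1 (-3.05) had lower effects inside the cluster. None of these 3 passed with DESeq2, and with median-of-ratios scaling Wdr95 passed (adjusted p = 0.00373), while Il10ra (0.0876) and Lpin1 (0.159) did not. These genes had been named for a high ratio of cluster 8 to other cells in the Cren hashtags. A high ratio there lowers the difference of effects, so the negative signs follow in part from the choice. DESeq2 kept only 3 genes, named here after their values were seen: Ikzf2, encoding the factor Helios (edgeR difference 3.37, adjusted p = 4.71e-08), Trbc1, the first TCR beta constant gene (2.52, adjusted p = 1.62e-09), and the joining segment Trbj1-1 (7.85, adjusted p = 1.98e-06). Inside the cluster Trbj1-1 rested on 8 and 1 UMIs in Crep 3 and Crep 4, against 0, 0, 0 and 1 in Cren 1 to 4, and Lpin1 on 2 and 0 UMIs, against 25, 18, 48 and 7, so the fitted sizes of both are uncertain. Trbj1-1 and Trbc1 are both parts of the TCR beta chain. Without Crep 4 the difference for Ikzf2 did not pass (adjusted p = 0.142), and without Crep 3 that for Trbc1 did not (adjusted p = 0.136).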

How the data were processed

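UMI counts per gene and cell were used as deposited by the authors, made with Cell Ranger 7.0.0 and Seurat 4.3.0 on build mm10, per the submitters' processing notes; the filters on cells are not given in the sources used here. Hashtags, fine and coarse clusters and the percentage of mitochondrial and ribosomal reads per cell came from the authors' deposited annotation. The 8562 cells carried 25614763 UMIs over 12798 genes. UMIs were summed per hashtag inside and outside cluster 8, with at least 10 cells per hashtag. The median percentage of mitochondrial UMIs per hashtag ran from 0.49 to 0.72% in cluster 8 and from 0.61 to 0.81% elsewhere. Groups were compared with edgeR 4.0.16 (TMM scaling, filterByExpr, quasi-likelihood test with Benjamini-Hochberg adjustment over all genes tested, threshold 0.05), with DESeq2 and limma-voom as alternatives. The code was tested on simulated counts. Cluster 8 against other cells was described by ratios with 10 CPM added. Named genes were the 20 highest and 10 lowest by median ratio with the same sign in every Cren hashtag. List members past 2-fold in every hashtag were named too, as were some of the genes called over all cells but not without the cluster. V segments were called per cell by most UMIs, leaving out ties. The cluster, its gene lists and the tests were chosen with earlier results of these data known. GENCODE M21 (GRCm38) gave coordinates and V sequences.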

Additional observations from a re-analysis of the deposited data

Results flagged for a closer look

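In 72 sets of 4 hashtag values, 3 held a value farther from the others than Dixon's 95% critical gap, and chance flags about 1 such set in 20. The effective number of Trbv segments in cluster 8 was 7.42 in Cren 1, against 2.38 to 2.95 in the other 3 Cren hashtags. Pdcd1 outside cluster 8 was 32.1 CPM in Crep 2, against 12.9 to 15.5 CPM in the other 3 Crep hashtags, and the call of Pdcd1 outside the cluster turns on that hashtag. Il12rb2 in the other cells was 91.0 CPM in Cren 1, against 119 to 123 CPM in the other 3 Cren hashtags.

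The Crep minus Cren effect differed between cluster 8 and the other cells, by the interaction test in edgeR, for 7 genes given in the text. The differences on the log2 scale were 1.17 for Pdcd1, 3.37 for Ikzf2, 2.52 for Trbc1 and 7.85 for Trbj1-1, and -1.67 for Il10ra, -1.78 for Wdr95 and -3.05 for Lpin1. The median over all genes in that fit was -0.30. Pdcd1, Il10ra, Wdr95 and Lpin1 were among the leading genes of a cluster drawn on expression, so their values follow in part from that grouping. Leading genes were named for high ratios in Cren, which lowers their difference of effects.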

How the results depend on the processing

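At a 1.5-fold limit 35 genes were higher and 54 lower in cluster 8, and leaving out a Cren hashtag gave 14 to 19 higher and 23 to 28 lower. By UMIs, Trbv3 made up 36.9% of the Trbv counts of cluster 8 in Cren 1, against 25.3% by cells, and Trbv4 41.7% in Cren 2, against 49.1% by cells. Within the cluster the count of 0 became 10 with no filter on low counts, 1 with limma-voom, 2 with at least 20 cells per hashtag and 0 to 4 without 1 hashtag. Outside the cluster the count of 49 became 147 with DESeq2, 29 with limma-voom and 10 (without Cren 1) to 122 (without Cren 3). The 41 differences of effect became 3 with DESeq2, 12 with median-of-ratios factors and 9 (without Crep 4) to 82 (without Cren 4). The causes were not tested.

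The small differences of Pdcd1 and Tox within the cluster changed sign. Pdcd1 was -0.15 with no filter, -0.056 with at least 20 cells, and -0.058 to 0.30 without 1 hashtag, and Tox -0.37 to 0.024 without 1 hashtag. Same-numbered Crep and Cren hashtags deviated together with correlations of -0.05, 0.15, 0.17 and 0.13 outside the cluster, and Crep 1 correlated best with Cren 2 (0.20), so the numbers are not taken as pairs. With the number as a replicate block, 7 genes were called within the cluster and 73 outside it, and Pdcd1 within it was -0.015. Leaving out cells of the leading Trbv left no Crep hashtag with 10 cells, so that fit was not run within the cluster. The pseudocount of 1 CPM was chosen after seeing the data and gave 18 higher and 24 lower genes.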
